A study of Homo sapiens with 8 samples.

Results

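Genes of TGF-beta and bone morphogenetic protein (BMP) signalling were followed across RNA-seq gene counts of 8 libraries. The set holds 47 genes chosen by name, with earlier results of these data known. Each matched 1 of the 63677 Ensembl gene IDs counted. They were sorted into 7 roles: ligands, latent complex and processing, receptors and co-receptors, secreted antagonists and decoy receptor, signalling SMADs, intracellular inhibitors, and target genes. All cells were PC9, a human lung adenocarcinoma line, or its brain metastatic subline PC9-BrM3. The shHSF1 group (2 libraries) was PC9-BrM3 with a lentiviral, doxycycline-inducible hairpin against the heat shock transcription factor HSF1 (Tet-pLKO-shHSF1, clone 7480). The shNTC group (2 libraries) was PC9-BrM3 with the non-target hairpin Tet-pLKO-shNTC. Both transduced groups went through 5 days of puromycin selection and then 48 h in doxycycline at 500 ng/mL, so shNTC carries the vector, the selection and the drug too. The PC9-BrM3 and PC9 parental groups (2 libraries each) were untransduced and untreated, and were cultured for 48 h before harvest. Every group was grown in RPMI medium with serum. A single hairpin was used against HSF1, so loss of HSF1 and any other action of that hairpin cannot be told apart. Whether the 2 replicates of a group came from separate cultures is not stated, so p-values measure only the spread between these libraries, which may be technical.

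TGF-beta, activin and BMP ligands are secreted dimers that bring together type I and type II serine/threonine kinase receptors. TGF-beta and activin receptors act mainly through SMAD2 and SMAD3, BMP receptors through SMAD1 and SMAD5, and both branches share SMAD4. The pathway restrains itself through inhibitory SMADs, ubiquitin ligases and nuclear co-repressors, and extracellular antagonists hold ligands away from receptors. In lung adenocarcinoma cells TGF-beta signalling is known for its part in growth arrest, epithelial-mesenchymal change and spread.

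Libraries held 33550140 to 56715336 gene-assigned counts, and a count of 0 allowed up to 0.0529 to 0.0894 CPM (counts scaled to a common library size), where 3 counts were taken as the limit. HSF1 itself stood at 16.3 and 14.1 CPM in shHSF1 and at 185 and 189 CPM in shNTC, which gives -3.61 ± 0.08 on the log2 scale (SE; edgeR adjusted p = 2.66e-08; 2 libraries per group throughout). Between PC9-BrM3 (52.8 and 50.7 CPM) and PC9 parental (45.3 and 47.7 CPM) it gave 0.15 ± 0.14 (edgeR adjusted p = 0.531). HSF1 in shNTC thus stood above its level in the untransduced subline, and the fall with shHSF1 is measured from that higher level. The difference between shNTC and PC9-BrM3 was not tested. Replicates varied beyond counting noise in every group, with a chi-square per degree of freedom of 335 in PC9-BrM3 and of 12, 26.6 and 27.7 in shHSF1, shNTC and PC9 parental, so the PC9-BrM3 pair stood apart in its spread. The transduced libraries were run on lane 1 and the untransduced ones on lane 7, per the file headers, and each comparison lies within a lane. All 6 epithelial markers were detected, although NKX2-1, a lung lineage factor, had only 0 to 7 counts per library. Their summed level was 6169 and 6388 CPM in shHSF1, 4574 and 4395 CPM in shNTC, 3721 and 2754 CPM in PC9-BrM3, and 2884 and 3099 CPM in PC9 parental. With shHSF1, KRT8 (log2 fold change 0.63 ± 0.06), KRT18 (0.70 ± 0.06) and CDH1 (0.41 ± 0.06) of this list were called higher by edgeR. Part of the list, though not the list as a whole, thus moved with that comparison too. Fibroblast markers were detected for 3 of 5 genes and summed to at most 0.096 CPM, with DCN and LUM at 0 in every library. Leukocyte markers (3 of 3 detected) summed to 0.202 to 0.845 CPM, and astrocyte and neuron markers (3 of 3 detected) to 0.0192 to 0.417 CPM. The endothelial list (2 of 3 genes matched and detected) summed to 26.5 and 20.8 CPM in shHSF1, 45.5 and 38.5 CPM in shNTC, 33.7 and 21.3 CPM in PC9-BrM3, and 55.7 and 52.4 CPM in PC9 parental. Nearly all of it was CDH5, an endothelial cadherin, which moved with both comparisons, at a log2 fold change of -0.91 ± 0.13 with shHSF1 (edgeR adjusted p = 0.000504) and of -0.87 ± 0.18 in PC9-BrM3 (0.048). The PC9-BrM3 value did not pass without PC9 parental replicate 1 (adjusted p = 0.354) or 2 (0.232). VWF, the other matched gene of that list, was higher with shHSF1, at 0.647 and 0.91 CPM in shHSF1 and 0.321 and 0.42 CPM in shNTC (1.08 ± 0.37; edgeR adjusted p = 0.0375), a call lost whichever of the 4 libraries was left out (0.0535 to 0.239). It was not called in PC9-BrM3 (-1.18 ± 0.52). The part of either list in the results was not tested. In bulk RNA of these cultures, fewer cells expressing a gene and less of its RNA per cell cannot be told apart.

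The first question was how these genes differed with the HSF1 hairpin. With shHSF1, 23 members were higher, 8 were lower and 13 did not pass the threshold (edgeR quasi-likelihood test, adjusted p under 0.05 over all genes). BMP7, GREM1 and ID2 did not pass the count filter and were not tested. The 31 calls were 70.5% of the 44 members tested, while 45.7% of all 16840 genes tested were called. Higher calls made up 52.3% of the members tested, against 22.2% of all genes, and lower calls 18.2%, against 23.5%. The median log2 fold change was 0.25 over the members tested and 0.01 over all genes. The members were chosen with earlier results of these data known, so their shares cannot be told apart from that choice. Changes of at least 2-fold were found in 7 members (15.9% of those tested, against 10.4% of all genes): INHBA, BMPR1B, FST, FSTL3, SMAD7 and IL11 were higher, and CHRDL1 was lower. All 7 also passed when any 1 library was left out, as did 19 of the 31 calls in all. With all 8 libraries in 1 fit, 14 of the 31 passed (11 higher and 3 lower), and 21.4% of all genes. The 17 that did not were TGFB1 (adjusted p = 0.184), SKI (0.0513), SMAD3 (0.0536), SMAD6 (0.0551), ID1 (0.0713), LTBP1 (0.0864), SMAD2 (0.0887), SMURF1 (0.0959), and, between 0.133 and 0.265, BMP4, LTBP2, BMP1, TGFBR1, ACVR1, ACVR1B, ACVR2B, SMAD5 and SMURF2.

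**Figure D1:**
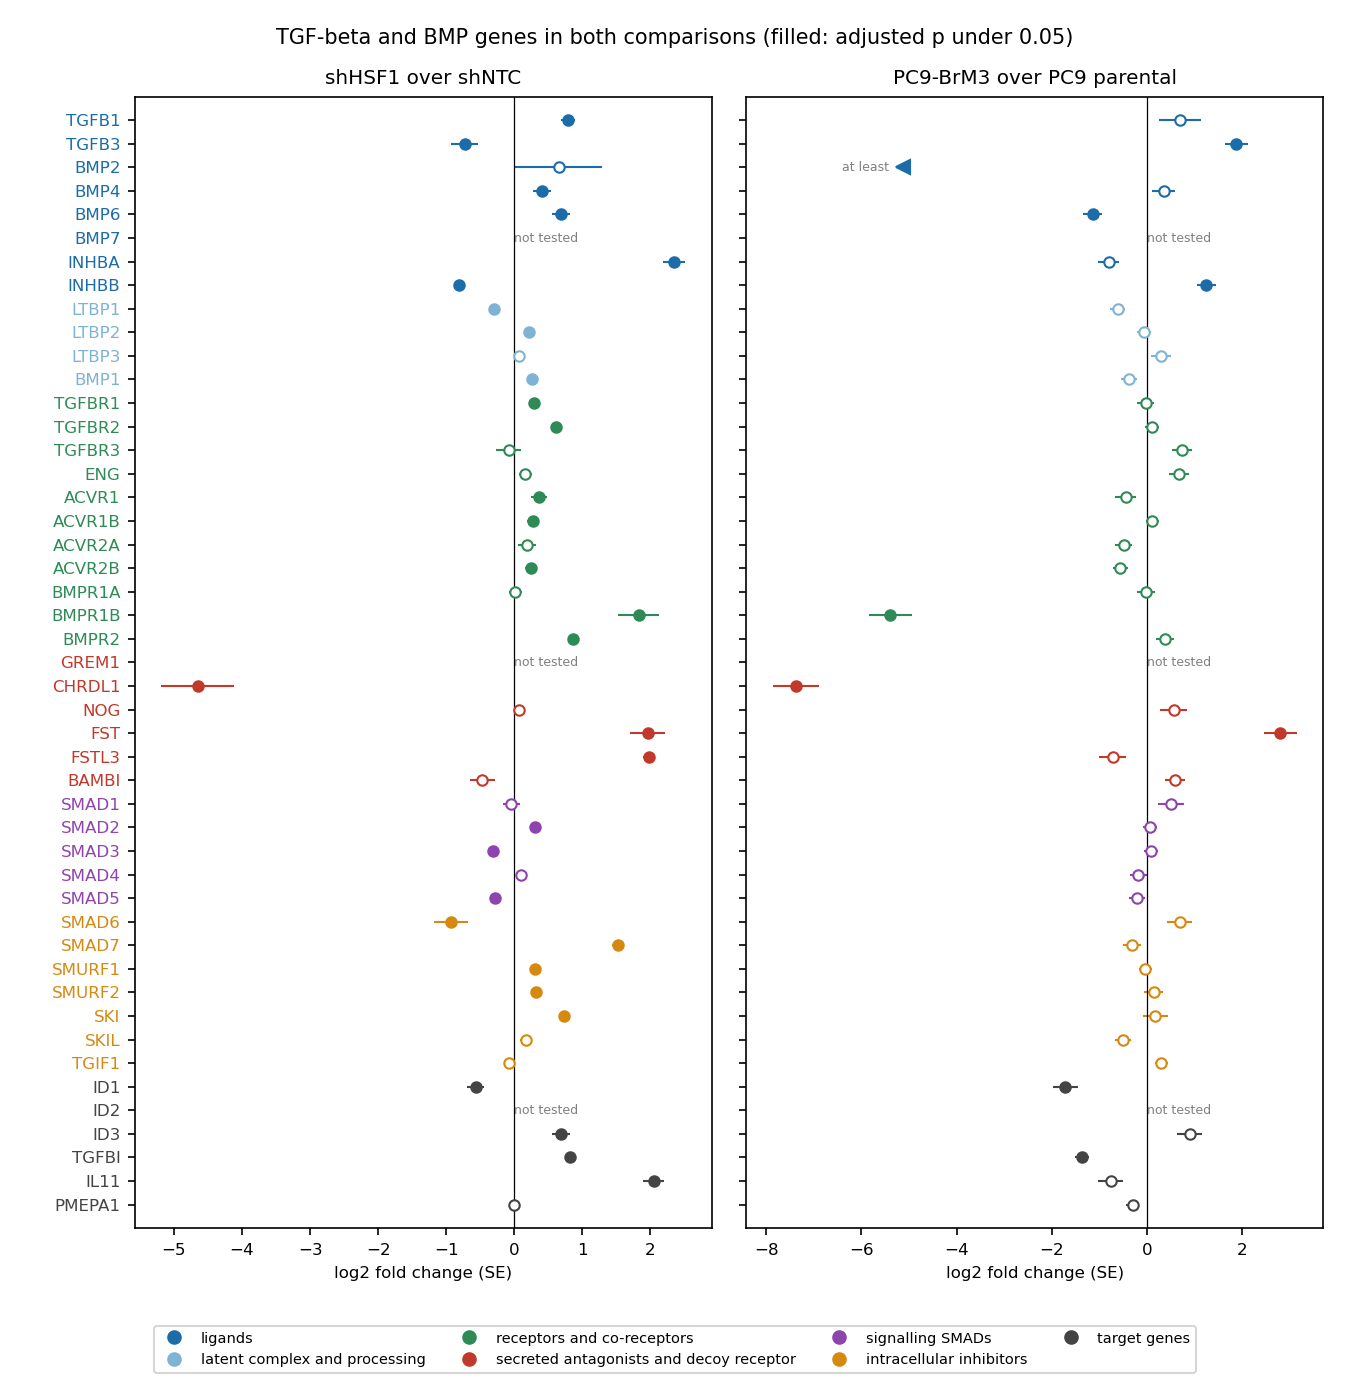
Log2 fold change (horizontal axis; bars are SE, n = 2 libraries per group) of each member, ordered and coloured by role, in shHSF1 over shNTC (left) and PC9-BrM3 over PC9 parental (right). Filled points passed the adjusted p threshold, which 31 members did on the left and 9 on the right; the triangle for BMP2 is a lower bound of the fall, since PC9-BrM3 held 0 counts.

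Among the ligands, 4 of 7 tested were higher with shHSF1 and 2 were lower. Counts by role, here and below, stand beside 22.2% of all genes called higher and 23.5% called lower. Roles hold few genes and were not tested as sets. The largest rise of all members was that of INHBA (ENSG00000122641, chromosome 7 from 41724712 to 41742706, like all gene positions here in GRCh37), which encodes the subunit of activin A. Its level was 325 and 235 CPM in shHSF1, against 57 and 52.7 CPM in shNTC (log2 fold change 2.35 ± 0.17, SE; edgeR adjusted p = 0.000182). The groups did not overlap, and the shHSF1 libraries lay further apart than the shNTC ones. At 2 libraries per group, a lack of overlap carries little weight. ENG and SKIL, which were not called, did not overlap either. INHBB, the subunit of activin B, was lower, with a log2 fold change of -0.82 ± 0.06 (edgeR adjusted p = 7.07e-06) and 111 and 107 CPM in shHSF1, against 199.6 and 185 CPM in shNTC. TGFB1, the most widely expressed TGF-beta ligand, rose by 0.79 ± 0.10 on the log2 scale, and TGFB3 fell by 0.73 ± 0.20. The TGFB3 call was not stable, and its adjusted p was 0.0754 without shNTC replicate 2 and 0.0979 without shHSF1 replicate 1. BMP6 rose by 0.69 ± 0.14 and BMP4 by 0.41 ± 0.14, both BMP ligands. The BMP4 call did not hold without shNTC replicate 1 (adjusted p = 0.249) or shHSF1 replicate 2 (0.177). BMP2 lay at 10 and 14 counts in shHSF1 and at 16 and 2 counts in shNTC, with overlapping groups. BMP7 had 0 counts in both shHSF1 libraries and 2 and 0 counts in shNTC. TGFB2, a TGF-beta ligand outside the 47 genes and named after its value was seen, stood at 112.5 and 89.8 CPM in shHSF1, against 55.9 and 44.5 CPM in shNTC (log2 fold change 1.01 ± 0.14, SE; edgeR adjusted p = 0.00107).

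Of the 4 latent complex and processing genes, 2 were higher and 1 was lower. LTBP1, LTBP2 and LTBP3 bind latent TGF-beta into the matrix, and BMP1, despite its name, is a metalloprotease that cleaves matrix and latent complex proteins. LTBP2 rose by 0.22 ± 0.06 and BMP1 by 0.26 ± 0.08 on the log2 scale, while LTBP1 fell by 0.30 ± 0.08. LTBP3 had a log2 fold change of 0.07 and was not called. Each of these 3 calls was lost without at least 2 of the 4 libraries in turn, at an adjusted p between 0.0544 and 0.1595.

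Of the receptors and co-receptors, 7 of 11 were higher with shHSF1 and 0 were lower by edgeR (1 gene, TGFBR3, had a negative value, with 0 at an unadjusted p under 0.05 and 0 called by DESeq2). Over all genes tested, 22.2% were called higher and 23.5% lower. Of the 7, only TGFBR2, BMPR1B and BMPR2 passed with all 8 libraries in 1 fit. BMPR1B (ENSG00000138696, chromosome 4 from 95679119 to 96079599), a type I BMP receptor, had 54 and 62 counts in shHSF1 and 24 and 14 in shNTC. That was 1.46 and 1.82 CPM, against 0.51 and 0.39 CPM (log2 fold change 1.83 ± 0.30, SE; edgeR adjusted p = 0.000821), low levels in every library. BMPR2, the type II BMP receptor, rose by 0.87 ± 0.07 on the log2 scale (edgeR adjusted p = 9.90e-06). It stood at 93.3 and 89.5 CPM in shHSF1, against 48.0 and 52.5 CPM in shNTC. TGFBR2, the type II TGF-beta receptor, rose by 0.61 ± 0.07, and its type I partner TGFBR1 by 0.29 ± 0.07. The activin and BMP type I receptors ACVR1 and ACVR1B rose by 0.36 ± 0.12 and 0.28 ± 0.09, and the type II receptor ACVR2B by 0.25 ± 0.09. These last 4 calls were small and each was lost without at least 2 of the 4 libraries in turn, at an adjusted p of 0.0501 to 0.275. TGFBR3 and ENG, both co-receptors, and ACVR2A and BMPR1A were not called, with log2 fold changes of -0.08 to 0.18.

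Among the secreted antagonists and the decoy receptor, 2 of 5 were higher and 1 was lower. FSTL3 and FST, the follistatin family proteins that bind and neutralise activins, rose together with the activin subunit INHBA. FSTL3 (ENSG00000070404) stood at 127 and 109 CPM in shHSF1, against 31.9 and 27.9 CPM in shNTC (log2 fold change 1.98 ± 0.09, SE; edgeR adjusted p = 3.64e-07). FST (ENSG00000134363, chromosome 5 from 52776239 to 52782964) stood at 7.41 and 5.49 CPM in shHSF1, against 2.07 and 1.18 CPM in shNTC (log2 fold change 1.96 ± 0.26; edgeR adjusted p = 0.000210). Neither gene's groups overlapped. CHRDL1 (ENSG00000101938, chromosome X from 109917084 to 110039286), a chordin-like protein that binds BMPs, had 1 and 2 counts in shHSF1, against 46 and 47 counts in shNTC. On library sizes that was 26.7-fold lower (95% exact interval of the ratio 8.87 to 132, counting error only; edgeR adjusted p = 8.37e-05). The BMP antagonist NOG and the decoy receptor BAMBI were not called, at log2 fold changes of 0.07 and -0.47, and BAMBI had an adjusted p of 0.0578. GREM1, another BMP antagonist, had 1 count in each shHSF1 library and 0 in each shNTC library.

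**Figure D2:**
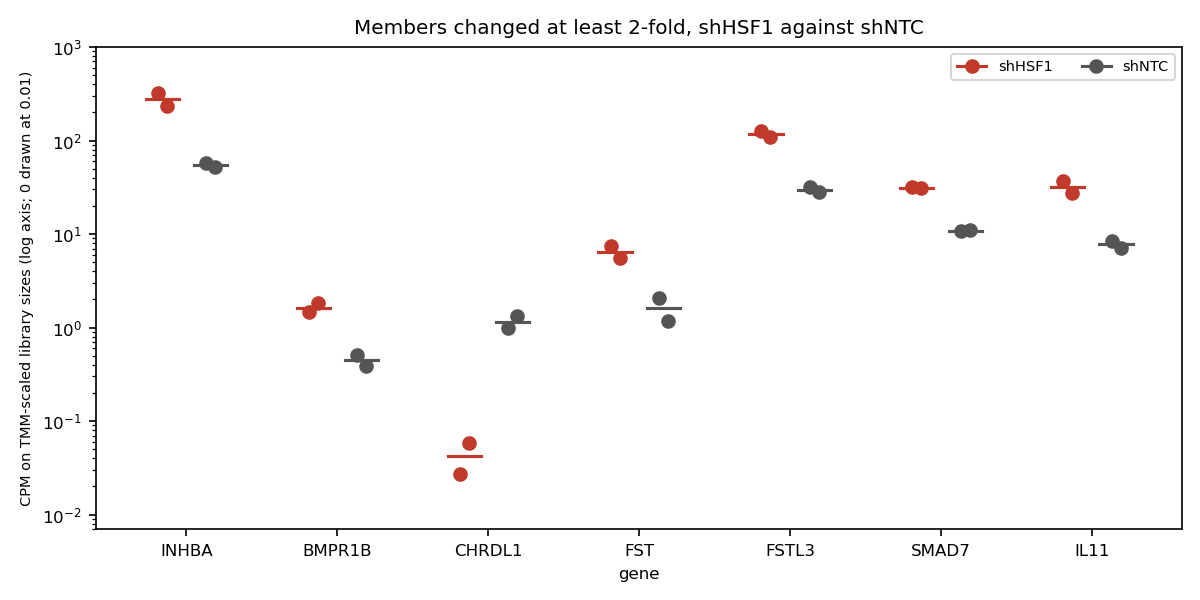
Normalised level (CPM, log axis) in each library of the 7 members that changed at least 2-fold with the HSF1 hairpin; points are libraries, lines are means, shHSF1 is red and left, shNTC grey and right. In each gene the shHSF1 pair and the shNTC pair are apart, and CHRDL1 is the gene whose shHSF1 pair is lower.

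Of the 5 signalling SMADs, 1 was higher and 2 were lower. SMAD2 rose by 0.31 ± 0.07 on the log2 scale, while SMAD3, its partner in TGF-beta and activin signalling, fell by 0.32 ± 0.06 (edgeR adjusted p = 0.00477 and 0.00189). SMAD5, of the BMP branch, fell by 0.28 ± 0.07, a call lost without shNTC replicate 2 (adjusted p = 0.0771) or shHSF1 replicate 2 (0.0705). SMAD1 and SMAD4 were not called, at -0.04 and 0.10.

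Of the 7 intracellular inhibitors, 4 were higher and 1 was lower, and the 2 inhibitory SMADs went opposite ways. SMAD7 (ENSG00000101665), which blocks TGF-beta and BMP receptors and is itself induced by the pathway, stood at 31.8 and 30.8 CPM in shHSF1, against 10.7 and 11 CPM in shNTC. This is 1.53 ± 0.09 on the log2 scale (SE; edgeR adjusted p = 1.46e-06), with a gap between the groups far wider than either pair's spread. SMAD6 (ENSG00000137834, chromosome 15 from 66994566 to 67074338), which acts mainly on the BMP branch, stood at 1.99 and 3.58 CPM in shHSF1, against 5.82 and 4.70 CPM in shNTC. It fell by 0.93 ± 0.25 on the log2 scale (edgeR adjusted p = 0.0129), but its adjusted p was 0.0748 without shNTC replicate 1 and 0.0686 without shHSF1 replicate 1. SKI, a nuclear co-repressor of SMADs, rose by 0.73 ± 0.06 (edgeR adjusted p = 1.56e-05), and the ubiquitin ligases SMURF1 and SMURF2 by 0.31 ± 0.08 and 0.32 ± 0.06. The SMURF1 call was lost without shNTC replicate 2 (adjusted p = 0.0569) or shHSF1 replicate 1 (0.0728). The co-repressors SKIL and TGIF1 were not called, at 0.17 and -0.08.

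Of the target genes, 3 of 5 tested were higher and 1 was lower. IL11 (ENSG00000095752, chromosome 19 from 55875757 to 55881831), a cytokine of the IL-6 family that TGF-beta induces, stood at 36.8 and 27.3 CPM in shHSF1, against 8.40 and 7.08 CPM in shNTC (2.04 ± 0.15 on the log2 scale; edgeR adjusted p = 6.72e-06). TGFBI, a TGF-beta-induced matrix protein, stood at 429 and 442 CPM in shHSF1, against 256.5 and 237 CPM in shNTC (0.82 ± 0.06; edgeR adjusted p = 5.06e-06). Both shHSF1 libraries were above both shNTC libraries for IL11 and for TGFBI. The ID proteins, inhibitors of basic helix-loop-helix factors and classic BMP targets, did not move as a group. ID3 rose by 0.69 ± 0.14 on the log2 scale (edgeR adjusted p = 0.00243), ID1 fell by 0.57 ± 0.13 (edgeR adjusted p = 0.00478), and ID2 had 1 to 3 counts per library. PMEPA1, a TGF-beta-induced membrane protein that dampens SMAD signalling, gave 610.0 and 551 CPM in shHSF1 and 596 and 571 CPM in shNTC, overlapping groups with a log2 fold change of -0.01 ± 0.07.

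Promoter sequence is shown for 3 members that changed with the hairpin and whose window holds a searched motif. The 250 bases before each RefSeq start were read for the 42 members with an entry (82 starts; RefSeq, GRCh38.p14), on both strands. The SMAD palindrome GTCTAGAC was found in 1 of 42 members, SMAD6, and in 0.231% of 27305 genes. The AP-1 motif TGANTCA was found in 6 of 42 members (14.3%), ACVR1, SMAD1, FST, SMAD3, TGIF1 and IL11, and in 8.06% of all genes. The TEAD motif GGAATG was found in 6 of 42 (14.3%), and in 14.3% of all genes. Members had more starts per gene than all genes (35116 starts in 27305 genes), so shares by gene are not like for like. Counted by start, AP-1 matched 6 of 82 member starts and 6.57% of all starts. TEAD matched 7 of 82 and 11.9%. A heat shock element, GAANNTTCNNGAA or TTCNNGAANNTTC, was found in 0 of 42, and in 0.557% of all genes. No match of a motif overlapped a match of another. A match describes letters, not binding, and a window without it says only that the letters are not there. The windows of SMAD6 (chr15:66701986-66702235, plus strand), IL11 (chr19:55370464-55370713, minus strand) and FST (chr5:53480379-53480628, plus strand) read 5′ to 3′ as follows, the last base being next to the start and capitals marking the match.
SMAD6: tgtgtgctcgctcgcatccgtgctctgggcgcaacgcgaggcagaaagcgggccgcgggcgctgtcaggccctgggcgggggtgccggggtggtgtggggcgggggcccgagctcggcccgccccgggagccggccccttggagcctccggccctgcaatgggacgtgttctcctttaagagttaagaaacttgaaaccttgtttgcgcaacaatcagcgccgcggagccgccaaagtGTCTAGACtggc
IL11: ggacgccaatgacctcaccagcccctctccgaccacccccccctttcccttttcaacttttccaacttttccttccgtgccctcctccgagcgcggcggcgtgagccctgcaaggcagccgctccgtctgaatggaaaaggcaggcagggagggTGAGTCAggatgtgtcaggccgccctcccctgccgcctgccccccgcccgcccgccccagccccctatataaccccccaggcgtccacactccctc
FST: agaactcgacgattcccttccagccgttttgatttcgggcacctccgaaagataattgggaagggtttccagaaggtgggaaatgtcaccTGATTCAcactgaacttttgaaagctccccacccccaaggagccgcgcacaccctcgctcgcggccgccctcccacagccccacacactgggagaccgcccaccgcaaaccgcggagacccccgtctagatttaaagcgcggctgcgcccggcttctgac
The palindrome of SMAD6 begins 12 bases before the start, the AP-1 match of IL11 96 bases before it and that of FST 160 bases before it.

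Other genes of the pathway were followed as background to the 47. Of 81 listed, 80 were matched and 47 were tested with shHSF1, where 20 were higher and 13 lower at a median log2 fold change of 0.18. Over all 16840 genes tested, 22.2% were called higher and 23.5% lower, at a median of 0.01. A share of calls above that of all genes was thus not particular to the 47 members. The 5 with the smallest p were ITGB8, FSTL1, FURIN, COL1A1 and CRIM1. ITGB8, an integrin subunit that releases active TGF-beta from its latent complex, stood at 122.5 and 114 CPM in shHSF1, against 34.4 and 35.6 CPM in shNTC (log2 fold change 1.76 ± 0.07, SE; edgeR adjusted p = 1.37e-07). FURIN, the convertase that matures the ligands, rose by 0.86 ± 0.06, the collagen gene COL1A1 by 1.18 ± 0.09 and CRIM1, a BMP-binding membrane protein, by 0.65 ± 0.06. FSTL1, a follistatin-like protein, fell by 1.41 ± 0.06. CCN2, a TGF-beta target, had 16 and 9 counts in shHSF1 and 1 and 0 in shNTC and did not pass the count filter. Without that filter it was called higher (edgeR adjusted p = 3.4e-05), as it was with all 8 libraries in 1 fit (0.0114). Its counts are few, and p-values of the unfiltered fit are on another footing. INHBA had an edgeR adjusted p of 3.93e-50 there, against 0.000182 with the filter.

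The second question was how the same genes differed between the brain metastatic subline and the cells it came from. In PC9-BrM3, 3 members were higher than in PC9 parental, 6 were lower and 35 did not pass the threshold, and each of the 9 calls was at least 2-fold. They were 20.5% of the 44 members tested, while 7.14% of all 17372 genes were called and 5.94% were called at 2-fold or more. Higher calls made up 6.82% of the members tested, against 3.87% of all genes, and lower calls 13.6%, against 3.27%. The median log2 fold change was -0.02 over the members and 0.01 over all genes. Here too the shares cannot be told apart from the choice of members with earlier results known. The count of calls depended on the spread of the replicate pairs. It was 35 without PC9-BrM3 replicate 1 (51.1% of all genes called) and 22 without replicate 2 (30.8%), where the remaining PC9-BrM3 library is assumed to vary like the parental pair. It was 5 without PC9 parental replicate 1 (2.23% of all genes) and 4 without replicate 2 (2.64%). BMP2, BMPR1B, CHRDL1 and TGFBI passed in all 4 of these fits. Without the count filter 16 members passed (10.6% of all genes), and 19 with all 8 libraries in 1 fit (21% of all genes).

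The ligands held 4 of the 9 calls, 2 in each direction. TGFB3 (ENSG00000119699) stood at 6.34 and 6.98 CPM in PC9-BrM3, against 1.95 and 1.66 CPM in PC9 parental (log2 fold change 1.88 ± 0.24, SE; edgeR adjusted p = 0.0134). INHBB (ENSG00000163083) stood at 190.5 and 246 CPM in PC9-BrM3, against 81.9 and 102 CPM in PC9 parental (log2 fold change 1.24 ± 0.20; edgeR adjusted p = 0.0252). Neither gene's groups overlapped, but nor did those of INHBA and BMP4, which were not called. BMP2 (ENSG00000125845, chromosome 20 from 6748311 to 6760927), a BMP ligand, had 0 counts in both PC9-BrM3 libraries, against 83 and 49 counts in PC9 parental. On library sizes it was at least 34.8-fold lower, taking 3 counts over the group as the limit (edgeR adjusted p = 0.0153). BMP6 stood at 4.40 and 5.10 CPM in PC9-BrM3, against 10.7 and 10.2 CPM in PC9 parental (log2 fold change -1.14 ± 0.20; edgeR adjusted p = 0.0319). TGFB3, INHBB and BMP6 did not pass without either PC9 parental library, at an adjusted p of 0.0516 to 0.303. TGFB1 was not called and stood at 15.7 and 42.2 CPM in the PC9-BrM3 libraries, on either side of the 17.6 and 17.9 CPM of PC9 parental. INHBA was not called either, at 15.7 and 22.0 CPM in PC9-BrM3 and 31.0 and 34.8 CPM in PC9 parental (log2 fold change -0.81 ± 0.21; edgeR adjusted p = 0.0853), although DESeq2 called it lower (adjusted p = 0.0217). BMP4 was not called, at 6.61 and 7.70 CPM in PC9-BrM3 and 6.47 and 4.71 CPM in PC9 parental (log2 fold change 0.35 ± 0.25). BMP7, GREM1 and ID2 did not pass the count filter here either. BMP7 had 6 and 5 counts in PC9-BrM3 and 0 in both PC9 parental libraries, and without the filter it was called higher (edgeR adjusted p = 0.0102). That call rests on these few counts. The unfiltered fit also gave p-values on another footing, with CHRDL1 at an edgeR adjusted p of 1.35e-34, against 0.00344 with the filter. GREM1 had 0 counts in all 4 libraries, and ID2 had 4 and 0 in PC9-BrM3 and 3 and 8 in PC9 parental.

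BMPR1B was the receptor that passed the threshold in edgeR, and DESeq2 also called the co-receptor TGFBR3 higher (adjusted p = 0.0309). BMPR1B had 2 counts in each PC9-BrM3 library, against 126 and 101 counts in PC9 parental, 44.9-fold lower on library sizes (95% exact interval 17.3 to 166; edgeR adjusted p = 0.00481). The other 10 receptors and co-receptors had log2 fold changes of -0.56 to 0.74, with TGFBR1, TGFBR2 and BMPR1A between -0.03 and 0.11.

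CHRDL1 was the antagonist that fell. It had 1 and 3 counts in PC9-BrM3, against 476 and 431 counts in PC9 parental, 179-fold lower on library sizes (95% exact interval 69.8 to 660; edgeR adjusted p = 0.00344). FST rose, at 2.00 and 1.59 CPM in PC9-BrM3, against 0.27 and 0.24 CPM in PC9 parental (log2 fold change 2.81 ± 0.35; edgeR adjusted p = 0.0125). The parental libraries held 16 and 13 counts of it, and its adjusted p was 0.0574 and 0.0518 without PC9 parental replicates 1 and 2. NOG, FSTL3 and BAMBI were not called, at log2 fold changes of -0.72 to 0.59.

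**Figure D3:**
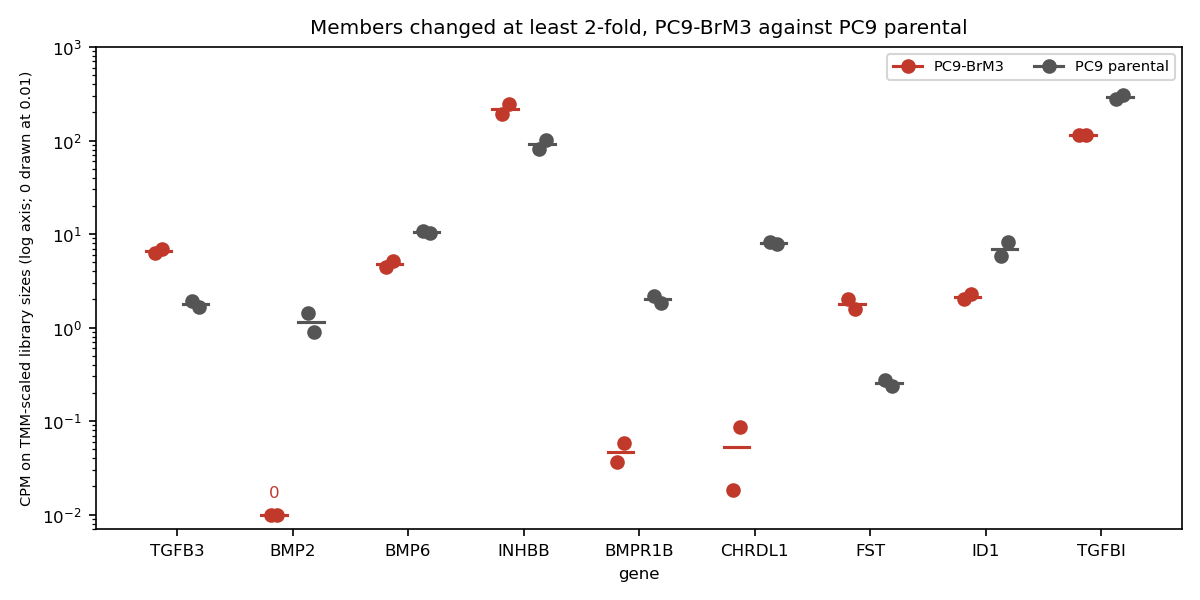
Normalised level (CPM, log axis, 0 drawn at 0.01) in each library of the 9 members that passed the threshold between PC9-BrM3 (red, left) and PC9 parental (grey, right); points are libraries and lines are means. TGFB3, INHBB and FST are higher in both PC9-BrM3 libraries, and BMP2, BMPR1B and CHRDL1 are near or at 0 there.

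The 16 latent complex and processing genes, signalling SMADs and intracellular inhibitors had log2 fold changes of -0.61 to 0.69 and 0 calls by edgeR in PC9-BrM3, although 3 had an unadjusted p under 0.05 and DESeq2 called 1, LTBP1. Among the targets, ID1 and TGFBI were lower. ID1 stood at 2.02 and 2.26 CPM in PC9-BrM3, against 5.86 and 8.15 CPM in PC9 parental (log2 fold change -1.71 ± 0.27; edgeR adjusted p = 0.0228), and its adjusted p was 0.174 without PC9 parental replicate 2. TGFBI stood at 113 and 115 CPM in PC9-BrM3, against 277 and 309 CPM in PC9 parental (log2 fold change -1.36 ± 0.15; edgeR adjusted p = 0.00860). ID3, IL11 and PMEPA1 were not called, with log2 fold changes of 0.90 ± 0.26, -0.76 ± 0.26 and -0.29 ± 0.14.

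Of the other pathway genes 50 were tested in this comparison, 2 of them higher in PC9-BrM3 and 6 lower, at a median log2 fold change of 0.06. Over all 17372 genes tested, 3.87% were called higher and 3.27% lower, at a median of 0.01. The 5 with the smallest p were ACVR1C, CDKN2B, ITGB8, ITGB6 and SMAD9. ITGB8 was higher (log2 fold change 1.17 ± 0.15). ITGB6, its fellow subunit of TGF-beta-activating integrins, was lower (-1.06 ± 0.15), as were the type I receptor ACVR1C (-3.76 ± 0.38), the BMP branch SMAD9 (-2.39 ± 0.40) and the cell cycle inhibitor CDKN2B (-1.28 ± 0.16). Counts were low for ACVR1C, with 6 and 4 in PC9-BrM3 against 87 and 88 in PC9 parental. They were also low for SMAD9, with 8 and 6 against 52 and 43. ITGB8, ITGB6 and SMAD9 did not pass without either PC9 parental library (adjusted p = 0.0879 to 0.199), nor CDKN2B without replicate 1 (0.0538), while ACVR1C passed without any 1 library. CCN2 had 0 counts in both PC9-BrM3 libraries and 2 and 1 in PC9 parental.

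Set side by side, 8 of the 44 members tested in both comparisons passed in both, which was 25.8% of the 31 knockdown calls and 88.9% of the 9 subline calls. Over all 16201 genes tested in both, 4.08% were called in both, which was 8.83% of the knockdown calls and 60.8% of the subline calls. The 2 comparisons share no libraries, though shHSF1 and shNTC are PC9-BrM3 cells. Opposite directions were found in 5 of these 8 members (62.5%), and in 55.8% of all genes called in both, which is 2.28% of the genes tested, against 1.8% with the same direction. TGFB3 and INHBB were lower with shHSF1 and higher in PC9-BrM3, and BMP6, BMPR1B and TGFBI were higher with shHSF1 and lower in PC9-BrM3. CHRDL1 and ID1 were lower, and FST higher, in both.

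**Figure D4:**
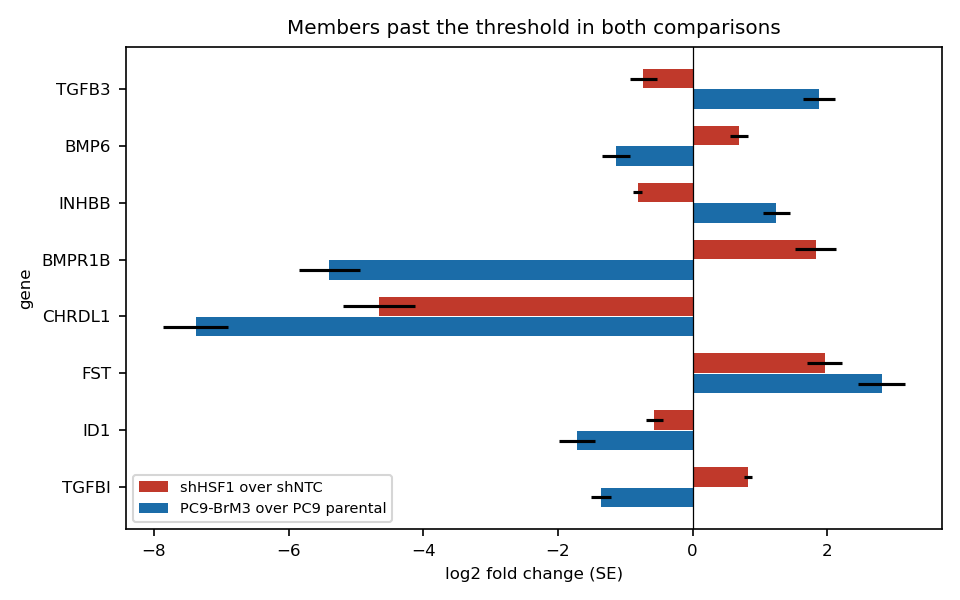
Log2 fold change (bars; whiskers are SE, n = 2 libraries per group) of the 8 members that passed the threshold in both comparisons, shHSF1 over shNTC in red and PC9-BrM3 over PC9 parental in blue. The bars point in opposite directions in 5 genes and in the same direction in CHRDL1, FST and ID1. The fitted values of CHRDL1 rest on 1 to 3 counts per library in the lower group. The blue bar of BMPR1B rests on 2 counts in each PC9-BrM3 library.

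Levels between genes were compared as TPM, counts divided by the exon length of the files and scaled to a common total. PMEPA1 was the most abundant member in 7 of the 8 libraries, at 430 and 398 TPM in shHSF1, 415 and 375 in shNTC, 241 and 147 in PC9-BrM3, and 273.5 and 299.5 in PC9 parental. INHBB exceeded it in the second PC9-BrM3 library, at 192 TPM. Between the ligands, INHBB stood at 137.5 and 135 TPM in shHSF1 and INHBA at 171 and 126.5, with overlapping values of the activin A and activin B subunits. In shNTC, INHBB stood at 244 and 213 TPM and INHBA at 29.6 and 25.8. Among receptors, TGFBR1 (31.2 to 70.3 TPM over all libraries), TGFBR2 (17.9 to 55.2) and BMPR2 (15.8 to 31.1) exceeded BMPR1A (4.43 to 8.82) in every library. The second PC9-BrM3 library was lower than the first in TPM for 39 of the 47 members, and its TMM scaling factor was 0.871, against 1.06 in the first. TPM of that group are therefore given per library only.

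The shNTC and untransduced PC9-BrM3 libraries are both PC9-BrM3 cells, yet several members stood at other levels. ID1 stood at 54.7 and 48.3 TPM in shNTC and at 6.41 and 4.58 TPM in PC9-BrM3. INHBA stood at 29.6 and 25.8 TPM in shNTC and at 8.17 and 7.31 TPM in PC9-BrM3. CHRDL1 stood at 0.93 and 1.17 TPM in shNTC and at 0.0171 and 0.0522 TPM in PC9-BrM3. These values were not tested, and lane, transduction, puromycin and doxycycline cannot be told apart in them. In shHSF1, CHRDL1 stood at 0.0257 and 0.0573 TPM, near the values of the untransduced subline, and ID1 at 32.1 and 41.4 TPM, above those values.

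**Figure D5:**
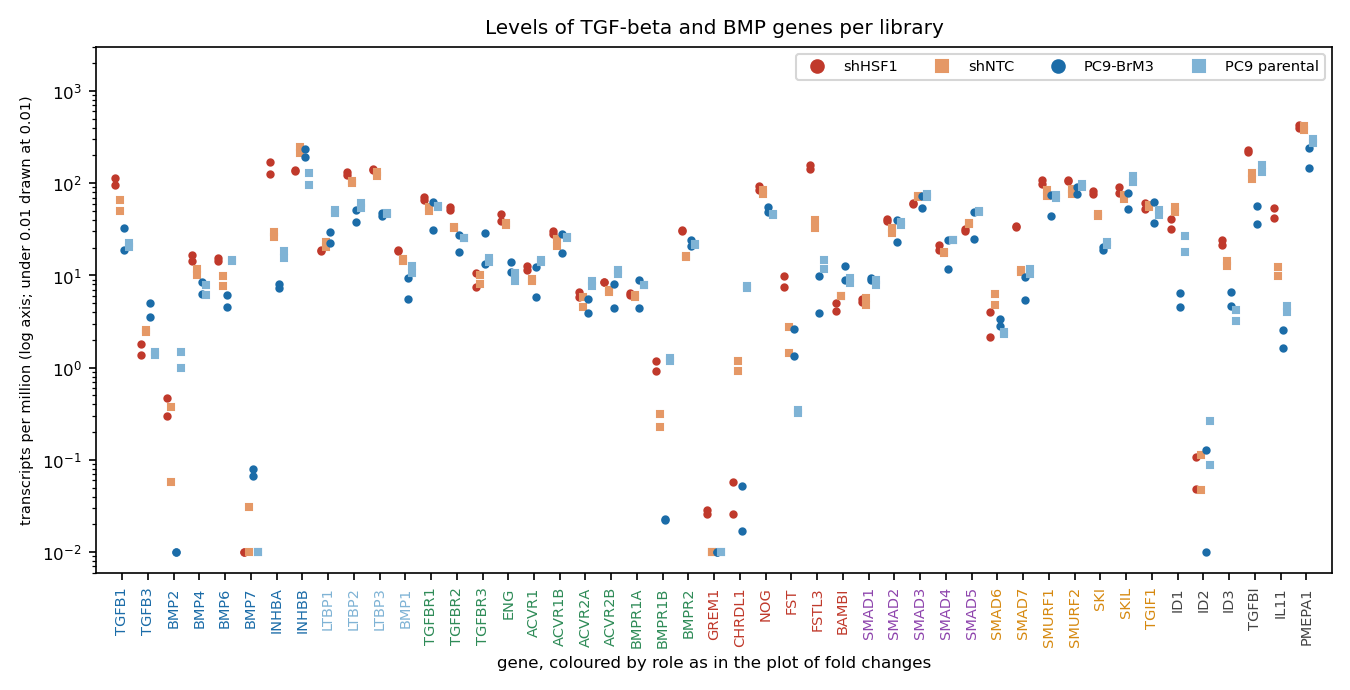
Level of each of the 47 members in TPM (log axis; values under 0.01 drawn at 0.01) in every library, grouped as shHSF1, shNTC, PC9-BrM3 and PC9 parental. PMEPA1, INHBB and TGFBI are among the highest, and BMP7, GREM1 and ID2 are at or near 0 in all 8 libraries.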

How the data were processed

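Total RNA of 8 libraries was sequenced. The authors deposited unnormalized counts, made with featureCounts 1.6.1 from exons of each Ensembl gene ID, reverse-stranded, on Ensembl GRCh37, per the file headers. Trim Galore, HISAT2 and DESeq2 are named per the submitters' processing notes, without versions. The exon length of each gene, another deposited column, was used for TPM. Reads of near-identical gene copies may be lost in such counting, and strand keeps antisense genes apart. Symbols were found for 52181 of 63677 IDs (81.9%), and IDs with no symbol held 0.656% to 0.823% of counts.

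A comparison was fitted on the 4 libraries of its groups with edgeR 4.0.16 under R 4.3.3. Genes passed filterByExpr at a minimum count of 10 and a total of 15, sizes were scaled by TMM, and glmQLFit (robust=TRUE) and glmQLFTest gave p-values with Benjamini-Hochberg adjustment over all genes tested, at a threshold of 0.05. The fit has 2 residual degrees of freedom. CPM are on TMM-scaled sizes (sums over marker lists on library totals), an SE is the log2 fold change divided by the root of F, and exact count ratios have 95% intervals. The test was tried on simulated counts. Alternatives were RLE and upper-quartile factors, DESeq2 1.42.0, no count filter, all 8 libraries in 1 fit, a replicate block, and each library left out.

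The members and lists were chosen with earlier results of these data known. Every member is accounted for, and those called at 2-fold or more are given per library. Of the other pathway genes, the 5 with the smallest p plus CCN2 are named, and 1 further gene of the rule is not reported here. Genes of the transduced and untransduced sets were not tested against each other.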

Additional observations from a re-analysis of the deposited data

How the results depend on the processing

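Calls of members kept their direction in every alternative. RLE factors, no count filter and the replicate block left all 31 knockdown and all 9 subline calls in place, as did upper-quartile factors, and DESeq2 left 27 and 9, without ACVR1, ACVR2B, BMP4 and TGFB3 in the knockdown. The replicate numbers did not pair the libraries (correlation of deviations -0.00125 for the knockdown and 0.00953 for the subline libraries). With the replicate block 32 and 9 members were called, and 35 and 8 other pathway genes, beside 47.6% and 7.64% of all genes. With all 8 libraries in 1 fit, 14 members and 18 other pathway genes were called in the knockdown, against 31 and 33, and 19 and 16 in the subline comparison, against 9 and 8; that fit takes its spread from all 4 groups, PC9-BrM3 included. Without the count filter 16 members and 14 other pathway genes were called in the subline comparison, beside 10.6% of all genes. DESeq2 called 12 members and 12 other pathway genes there, beside 12.7% of all genes. With a library left out, its group holds 1 library, which is assumed to vary like the other pair. Counts of calls from such fits show only how calls depend on the pairs. They are not read as a departure of the members from all genes. Leaving out a library gave 23 to 27 member calls and 27 to 32 other calls in the knockdown, and 4 to 35 and 1 to 25 in the subline comparison.

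Only genes that were not called changed sign in these alternatives. In the knockdown these were BMPR1A with all 8 libraries (-0.00964), and with upper-quartile factors SMAD1 (0.0247) and PMEPA1 (0.0607). With a library left out, log2 fold changes ran from -0.0191 to 2.52 for BMP2, -0.326 to 0.137 for TGFBR3, -0.0119 to 0.0424 for BMPR1A, -0.122 to 0.039 for SMAD1, -0.181 to 0.0142 for TGIF1 and -0.0825 to 0.0676 for PMEPA1. In the subline comparison they ran from -0.193 to 1.25 for TGFB1, -0.188 to 0.055 for LTBP2, -0.0134 to 0.557 for LTBP3, -0.212 to 0.119 for TGFBR1, -0.202 to 0.125 for BMPR1A, -0.0102 to 0.115 for SMAD2, -0.0392 to 0.186 for SMAD3, -0.0856 to 0.0107 for SMURF1, -0.0987 to 0.341 for SMURF2 and -0.265 to 0.516 for SKI. The causes were not tested. Upper-quartile factors moved the median of all genes in the knockdown to 0.07. Counts limit BMP2, BMPR1B, CHRDL1 and FST, whose lower groups hold 0 to 97 counts per library.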
